A study of Mus musculus with 10 samples.

Results

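The genes described here are 8 members of the neurotrophin and GDNF receptor systems of the mouse: the neurotrophin receptors Ngfr, Ntrk2 and Ntrk3, the neurotrophin ligands Bdnf and Ntf3, the receptor tyrosine kinase Ret, and the co-receptors Gfra1 and Gfra3. They were chosen by name, with earlier results of these data known, and are 8 of the 46517 genes counted in each library. The libraries came from malignant peripheral nerve sheath tumours (MPNST), sarcomas of peripheral nerve, grown as allografts, that is, as tumours passed into host mice. The 5 tumour models, named A to E in the labels, were each sorted into GFP+ and GFP- tumour cells, with 1 library of each population per model, so that each population has 5 libraries and the 10 libraries form 5 pairs. The series title calls the GFP+ cells expressers of a CGD transgene and the GFP- cells non-expressers. The labels do not spell out CGD or name the promoter that drives it. All groups share the same handling: the tumours were dissociated fresh, host and dead cells were gated out during the sort, and total RNA was extracted. The tumour genotype, the host strain, sex and age of the animals, any treatment, and whether a model is 1 animal or several are not stated in the sources used here, so p-values measure the spread between these 5 pairs and nothing wider.

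Neurotrophins are secreted growth factors that keep neurons alive and guide their growth. BDNF and NT-4 bind the kinase receptor TrkB (Ntrk2), NT-3 binds TrkC (Ntrk3), and all of them bind p75NTR (Ngfr), a receptor without a kinase domain that is also a marker of neural crest cells and immature or denervated Schwann cells. The GDNF family works through a shared kinase, RET, which each ligand reaches by way of a GFRα co-receptor anchored in the membrane: GDNF prefers GFRα1, neurturin (Nrtn) GFRα2, artemin (Artn) GFRα3 and persephin (Pspn) GFRα4. NCAM (Ncam1) is an alternative partner of GDNF and GFRα1. In injured peripheral nerve, Schwann cells are known as a source of BDNF and GDNF and as carriers of p75NTR.

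The promoter windows of 3 genes are shown because the results turn on these genes: Ngfr and Ntrk2, which differed in opposite directions between the populations of model D, and Artn, the GDNF family ligand with the highest level per length. Each is 200 bases long, read 5′ to 3′ on the gene's own strand, and ends before the annotated start of the gene; capitals mark the GC box GGGCGG or its complement. The sequences are from RefSeq on GRCm38.p6 (mm10), at chr11:95587749-95587948 on the minus strand for Ngfr, chr13:58806319-58806518 on the plus strand for Ntrk2 and chr4:117929814-117930013 on the minus strand for Artn.
Ngfr: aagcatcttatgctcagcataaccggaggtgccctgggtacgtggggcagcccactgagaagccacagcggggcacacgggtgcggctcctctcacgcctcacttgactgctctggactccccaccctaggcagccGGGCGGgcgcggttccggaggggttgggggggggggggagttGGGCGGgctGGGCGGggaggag
Ntrk2: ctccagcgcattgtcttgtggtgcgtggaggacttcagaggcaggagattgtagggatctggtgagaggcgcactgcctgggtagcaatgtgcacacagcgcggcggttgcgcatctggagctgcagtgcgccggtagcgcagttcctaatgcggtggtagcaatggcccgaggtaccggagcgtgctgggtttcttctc
Artn: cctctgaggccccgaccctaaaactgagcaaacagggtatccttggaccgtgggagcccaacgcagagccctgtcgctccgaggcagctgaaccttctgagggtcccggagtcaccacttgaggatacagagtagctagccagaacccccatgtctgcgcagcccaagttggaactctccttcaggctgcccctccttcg
The Ngfr window is the richest in G and C (70.0%, with 13 CpG dinucleotides) and holds 3 GC boxes. The Ntrk2 window has 61% G and C and 14 CpG, and the Artn window 60.5% and 8 CpG. Neither of these holds GGGCGG on either strand, a word present in 24.6% of 32851 mouse promoter windows of this length. The Ntrk2 window holds 1 match to the SOX words ACAAAG or ACAATG, found on either strand in 21.2% of windows, and the Artn window 1 match to the E box CAGCTG, found in 10.3%. A match is a description of the letters only. Of the 8 genes, 5 had an entry in the promoter table.

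The libraries held 15978673 to 22082207 reads on genes. Levels are given as CPM, the reads of a gene scaled by the gene reads of its library. Sox10, a transcription factor of the Schwann lineage, was at 1.63 to 112 CPM in models B, C and D but at 0 to 0.43 CPM in models A and E. Gap43, another gene of the Schwann list, was highest in GFP+ cells of model E (118 CPM). The lineage of the tumour cells was not tested. S100b, also a Schwann marker, had 0 reads in models A and E, 0 and 1 in model C, and at most 55 elsewhere. The summed level of 10 Schwann lineage markers was higher in GFP+ cells in 5 of 5 pairs, ranging over 80.0 to 368 CPM with GFP and 36.1 to 142 CPM without it. Markers of leukocytes summed to at most 21.5 CPM and those of endothelium to at most 3.57 CPM. The 5 pericyte markers were led by Rgs5 and Notch3 in models D, B and A. Their sum was higher without GFP in models D (135 against 51.2 CPM), B (118 against 44.1 CPM) and A (57.8 against 44.5 CPM). In model A, Rgs5 was higher without GFP (25.1 against 5.06 CPM) but Notch3 was higher with it (36.9 against 28.3 CPM). The pericyte sum was higher with GFP in models C (15.9 against 14.5 CPM) and E (15.9 against 10.8 CPM). Rgs5 went the other way in model C, at 0.706 CPM with GFP and 3.30 without it. In model D the X-inactivation transcript Xist also differed, at 103 CPM among GFP+ and 2.82 among GFP- cells. It was higher in GFP+ cells of models B (1049 against 523 CPM) and C (724 against 615 CPM) as well. In the GFP- library of model D, 5 skeletal muscle markers summed to 12.5 CPM, against at most 3.14 CPM in every other library. In such bulk libraries, fewer cells of a type and less RNA per cell cannot be told apart.

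None of the 8 genes passed the test for a difference between GFP+ and GFP- cells. The test was edgeR's quasi-likelihood test with the tumour model as a block and Benjamini-Hochberg adjustment over all 13986 genes that passed a filter on low counts; at an adjusted p under 0.05 it called 0 of them (0%), while 1257 genes (8.99%) had an unadjusted p under 0.05. Of the 8 genes, 5 passed the filter: Ngfr, Ntrk2, Ntrk3, Bdnf and Gfra1. Among these, 2 had a higher and 3 a lower fitted level in GFP+ cells, and 0 had an unadjusted p under 0.05. DESeq2, which called 1.39% of all tested genes, and edgeR's likelihood-ratio test, which called 1.47%, called 0 of them. Their median log2 difference was -0.09, against a median of -0.0028 over all genes tested. The levels of these genes also differed between the tumour models, and the share of the model in their spread was not tested. Within model D the log2 difference was 4.71 for Ngfr, -2.10 for Ntrk2, -2.01 for Ntrk3, -0.76 for Gfra1 and -0.12 for Bdnf. The log2 distance from the lowest to the highest model mean was 7.02 for Ntrk2, 5.93 for Ngfr, 4.89 for Gfra1, 3.64 for Ntrk3 and 3.57 for Bdnf. A distance over 4 was thus found for 3 of the 5, and for 4.03% of all tested genes. Models have no replicate tumours here, so their levels are described and not tested.

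**Figure D1:**
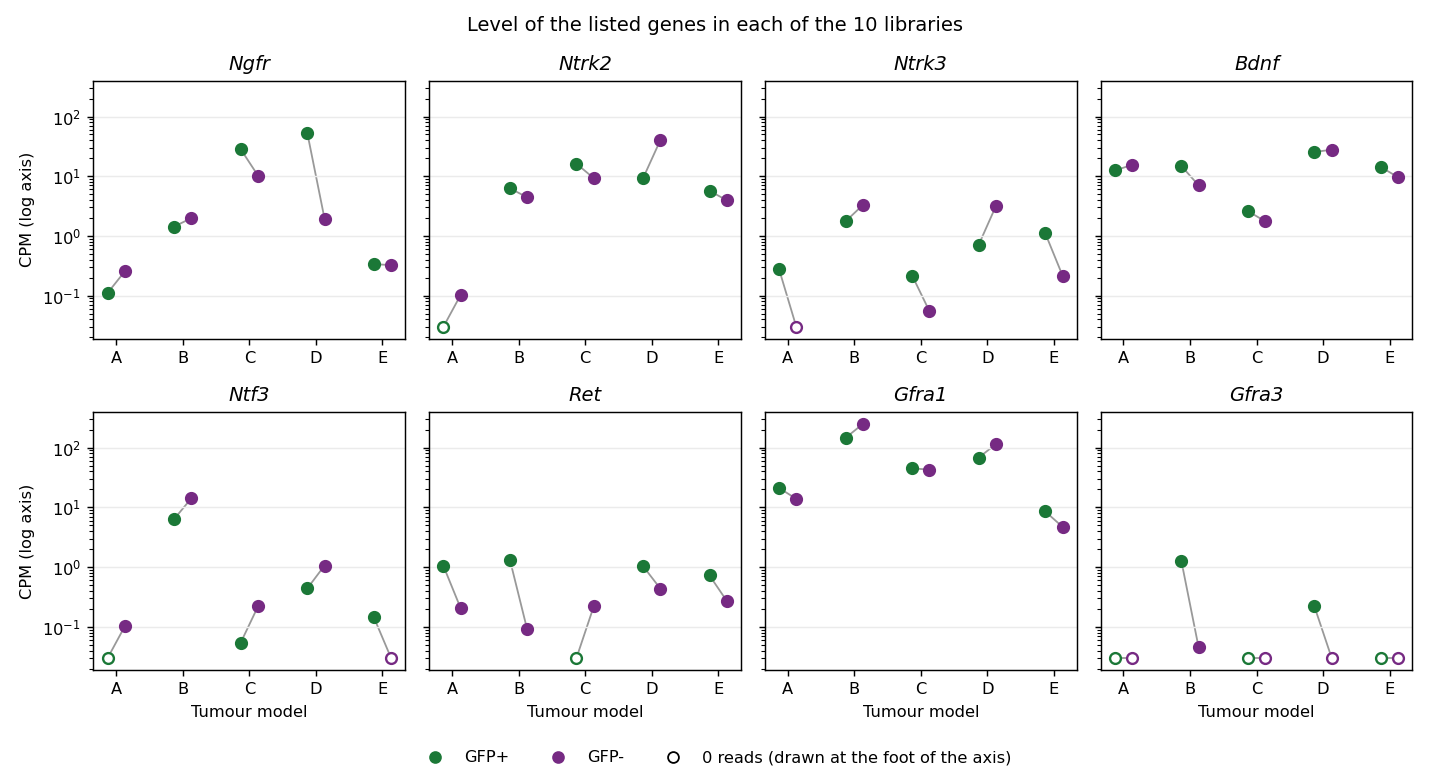
CPM (log axis) of the 8 genes in the 10 libraries, by tumour model A to E. Filled green points are GFP+ and purple points GFP- libraries, and open circles at the foot are libraries with 0 reads. Ngfr, Ntrk2 and Gfra1 are among the genes that spread over more than an order of magnitude between models. The 2 points of a model lie far apart for Ngfr (27.6-fold higher in GFP+ cells) and Ntrk2 (4.33-fold higher in GFP- cells) in model D. They also lie far apart for Ntrk3 in models D and E. The same holds, at 25 reads or fewer per library, for Ret in models A and B and Gfra3 in model B.

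Ngfr (ENSMUSG00000000120, mm10 chromosome 11, 95568818 to 95587735, minus strand) encodes p75NTR. Its level in GFP+ cells of models A to E was 0.11, 1.44, 28.4, 53.5 and 0.34 CPM. In GFP- cells of the same models it was 0.26, 1.99, 10.2, 1.94 and 0.33 CPM. Models C and D thus carried nearly all of the signal, and models A and E, with 2 to 7 reads per library, almost none. The model means ranked D, C, B, E, A, and of these neighbours only D and C overlapped in range. The GFP- library of model D, at 1.94 CPM, also lay within the range of model B (1.44 to 1.99 CPM). Within model D the 975 reads of the GFP+ library against 31 of the GFP- library gave a ratio of 27.6 (exact 95% interval 19.3 to 40.8), and in model C the 522 against 186 reads gave 2.77 (2.34 to 3.29). These intervals and those below cover counting error between 2 libraries only. In model B the ratio was 0.722 (0.430 to 1.19) and in model E 1.04 (0.299 to 3.74), so neither differed beyond counting error.

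Over the 5 pairs, Ngfr averaged 16.7 ± 23.8 CPM with GFP and 2.95 ± 4.16 CPM without it (SD, n = 5 each), and the populations overlapped. Its log2 difference was 1.49 (SE 0.85), with an adjusted p of 0.644 by edgeR's quasi-likelihood test. Without model D the log2 difference was 0.33, and without model B it was 2.30. Sox10 stood at 112 CPM in GFP+ cells of model D, 52.6 in C and 17.1 in B, and at 3.69, 7.65 and 1.63 CPM in their GFP- cells. In model B, Sox10 was higher in GFP+ cells while Ngfr was at 1.44 and 1.99 CPM. The Schwann marker sum of model D was 368 CPM with GFP and 95.9 CPM without; its part in the Ngfr values was not tested.

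Ntrk2 (ENSMUSG00000055254, chromosome 13, 58806569 to 59133970, plus strand) encodes TrkB, the BDNF receptor, which is made as a full-length kinase and as truncated forms that gene counts do not separate. In the order A to E, its GFP+ libraries read 0, 6.28, 16.2, 9.21 and 5.69 CPM and its GFP- libraries 0.10, 4.44, 9.30, 39.9 and 3.96 CPM. Model A stood apart from the other models in both populations, with 0 and 2 reads; a count of 0 in its GFP+ library allows up to 0.167 CPM. The order of the model means was that of Ngfr, D, C, B, E, A, with D and C, and B and E, overlapping in range. In model D the GFP- cells had 638 reads and the GFP+ cells 168, a 4.33-fold higher level in GFP- cells (3.65 to 5.17). In B, C and E the GFP+ cells were higher by 1.42-fold (1.07 to 1.87), 1.74-fold (1.44 to 2.11) and 1.44-fold (1.07 to 1.95).

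The averages of Ntrk2 were 7.48 ± 5.90 CPM (SD, n = 5) in GFP+ and 11.5 ± 16.2 CPM (SD, n = 5) in GFP- cells. Its log2 difference was -0.12 (SE 0.50, adjusted p = 0.970 by edgeR's quasi-likelihood test), and it was 0.50 without model D. In model D, Xist, the pericyte markers and the muscle markers also differed, by the values given above. Xist was also higher in GFP+ cells of model B, by 2.01-fold (1.96 to 2.05), and of model C, by 1.18-fold (1.15 to 1.21). The pericyte marker sum was also higher in GFP- cells of models A and B, and Ntrk2 was 1.42-fold higher in GFP+ cells of model B. The part of these differences in the Ntrk2 and Ngfr values was not tested.

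**Figure D2:**
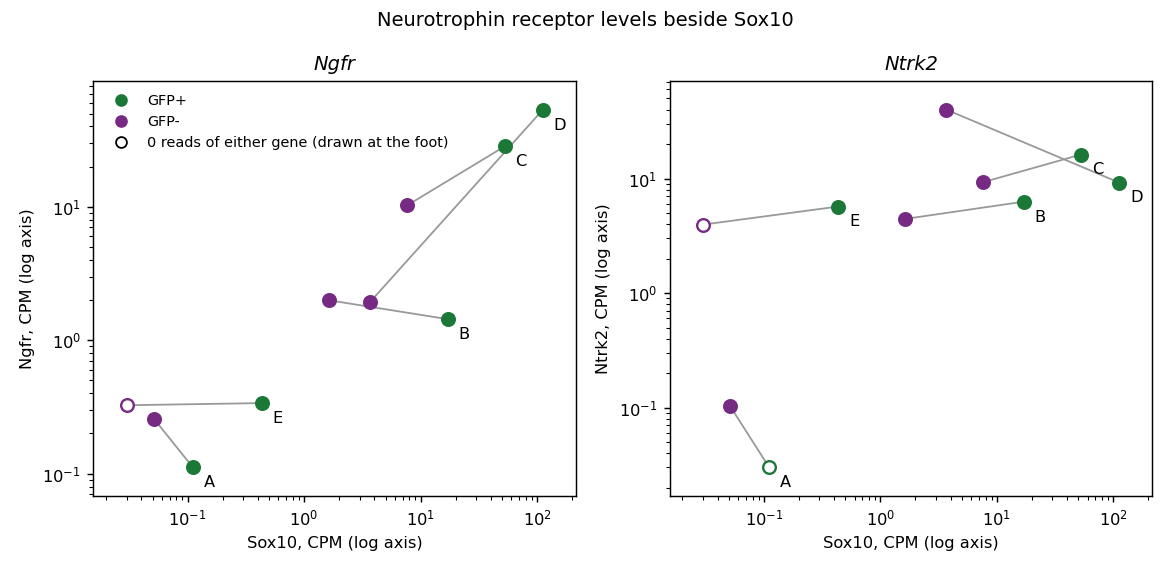
CPM of Ngfr (left) and Ntrk2 (right) against CPM of Sox10, on log axes, with a line joining the GFP+ (green) and GFP- (purple) library of each model and open circles for 0 reads of either gene. In model D the line climbs toward GFP+ cells for Ngfr (1.94 to 53.5 CPM) and descends for Ntrk2 (39.9 to 9.21 CPM), with Sox10 at 3.69 and 112 CPM.

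Ntrk3 (ENSMUSG00000059146, chromosome 7, 78175959 to 78738012, minus strand) encodes TrkC, the NT-3 receptor. It was low everywhere, with 0 to 73 reads per library, and the ranges of all neighbours in its order of models, B, D, E, A, C, overlapped. GFP+ cells held 0.28, 1.76, 0.22, 0.71 and 1.11 CPM in models A to E, and GFP- cells 0, 3.31, 0.06, 3.19 and 0.22 CPM. GFP- cells were higher in models B (1.88-fold, 1.23 to 2.93) and D (4.48-fold, 2.4 to 8.97), and GFP+ cells were higher in model E (5.12-fold, 1.75 to 20.4). The means of 0.82 ± 0.64 CPM (SD, n = 5) in GFP+ and 1.35 ± 1.73 CPM (SD, n = 5) in GFP- cells overlapped, with a log2 difference of -0.10 (SE 0.83, adjusted p = 0.985 by edgeR's quasi-likelihood test); DESeq2 put it at 0.69, the opposite sign. GFP- cells of B and D, where Ntrk3 was highest, are also those with the 2 highest pericyte marker sums, and the part of these markers in the Ntrk3 values was not tested. A non-coding gene on the opposite strand, Gm9885, overlaps Ntrk3 and had 6 reads over all libraries.

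The make-up of the receptor set differed between libraries. Levels of different genes are compared per kilobase of annotated exon, with the exons of all transcripts of a gene merged (3446 bases for Ngfr, 19292 for Ntrk2 and 30170 for Ntrk3), so that the shares depend on which isoforms are present, which these counts do not show. On that scale Ngfr made up 96.9% of the summed level of Ngfr, Ntrk2 and Ntrk3 in GFP+ cells of model D but 20.6% in its GFP- cells, where Ntrk2 made up 75.6%. Of the co-receptors, sortilin (Sort1), which pairs with p75NTR on proneurotrophins, stood at 2.71 to 51.3 CPM. SorCS2 (Sorcs2), another partner of p75NTR, stood at 84.2 to 249 CPM in all 10 libraries. Both were higher in GFP+ cells in most pairs: Sorcs2 in 5 of 5, although in model E the ratio was 1.03 (0.971 to 1.09), within counting error (162 ± 52.8 against 124 ± 34.9 CPM, SD, n = 5, unadjusted p = 0.0136, adjusted p = 0.443, edgeR) and Sort1 in 4 of 5 (19.6 ± 18.9 against 13.5 ± 11 CPM, SD, n = 5, unadjusted p = 0.0460, adjusted p = 0.549, edgeR). Without model B the log2 difference of Sort1 was 0.70, against 0.47 with it.

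Bdnf (ENSMUSG00000048482, chromosome 2, 109674700 to 109727007, plus strand) encodes the TrkB ligand and had reads in every library. GFP+ cells held 12.5, 14.9, 2.61, 25.5 and 14.2 CPM in models A to E, and GFP- cells 15.5, 7.02, 1.76, 27.8 and 9.60 CPM. Model D was highest and model C lowest in both populations, and the means ranked D, A, E, B, C, with A overlapping E and E overlapping B. The clearest difference within a model was in B, where GFP+ cells held 2.12-fold more (1.74 to 2.60). Over the 5 pairs the means were 13.9 ± 8.14 CPM (SD, n = 5) in GFP+ and 12.3 ± 9.95 CPM (SD, n = 5) in GFP- cells, with a log2 difference of 0.30 (SE 0.22, adjusted p = 0.720 by edgeR's quasi-likelihood test). That difference was 0.11 without model B, 0.47 without model A and 0.14 without the block that pairs the libraries. Model A is the case in which the ligand was present, at 12.5 and 15.5 CPM, while its kinase receptor Ntrk2 had 0 and 2 reads.

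Ntf3 (ENSMUSG00000049107, chromosome 6, 126101412 to 126166910, minus strand), the gene of NT-3, was seen almost only in model B, with 120 reads (6.39 CPM) in GFP+ and 315 reads (14.3 CPM) in GFP- cells. In the other 8 libraries it had 0 to 17 reads, that is, at most 1.06 CPM. GFP- cells of model B held 2.23-fold more than GFP+ cells (1.80 to 2.78). The gene did not pass the filter on low counts. It was lower in GFP+ cells in 4 of 5 pairs (1.41 ± 2.79 against 3.13 ± 6.24 CPM, SD, n = 5), with an exact two-sided sign-flip permutation p of 0.375; the smallest p that 5 pairs allow is 0.0625. Model B also had the highest mean level of Ntrk3, the receptor of NT-3, although its range there overlapped that of model D.

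Per kilobase of exon, Bdnf made up 85.2% and 78.0% of the summed level of Bdnf, Ntf3 and Ntf5 in GFP+ and GFP- cells of model D. In model B the larger share was that of Ntf3, 59.7% with GFP and 85.9% without it. Ntf5, the gene of NT-4, had 0 to 27 reads per library.

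Ret (ENSMUSG00000030110, chromosome 6, 118151745 to 118197718, minus strand), the signalling kinase of the GDNF family, had at most 25 reads in any library. GFP+ cells had 19, 25, 0, 19 and 15 reads in models A to E (1.06, 1.33, 0, 1.04 and 0.72 CPM), and GFP- cells had 4, 2, 4, 7 and 5 reads (0.21, 0.09, 0.22, 0.44 and 0.27 CPM). The 4 GFP+ libraries with reads all lay above all 5 GFP- libraries, and the GFP+ library of model C, with 0 reads, lay below them; its count allows up to 0.163 CPM. The ratio was 5.13 in model A (1.71 to 20.8) and 14.7 in model B (3.67 to 128.0), while the intervals of models D and E, 0.957 to 6.69 and 0.922 to 9.39, included equal levels. Ret did not pass the filter. Its means were 0.83 ± 0.51 and 0.25 ± 0.13 CPM (SD, n = 5), with an exact two-sided sign-flip permutation p of 0.25. Fitted without the filter, over 25762 genes, its log2 difference was 1.56 (SE 0.64, unadjusted p = 0.0299, adjusted p = 0.608, edgeR). The Schwann marker sum was higher in GFP+ cells of all 5 models, and its part in the Ret values was not tested. Its difference was carried mostly by Gap43 in models A (56.1 against 36.0 CPM), B (78.7 against 10.7 CPM) and E (118 against 86.2 CPM).

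Gfra1 (ENSMUSG00000025089, chromosome 19, 58235604 to 58455909, minus strand), the co-receptor that GDNF prefers, had the highest level of the 8 genes per kilobase of exon in 6 of 10 libraries. Ngfr was highest in GFP+ cells of models C (8.23 against 8.21 CPM per kilobase for Gfra1) and D (15.5 against 12.4), and Bdnf in both populations of model E (2.28 against 1.56 and 1.54 against 0.862). GFP+ cells held 21.1, 146, 45, 67.9 and 8.54 CPM in models A to E, and GFP- cells 13.9, 250.02, 42.9, 115 and 4.72 CPM. The models ranked B, D, C, A, E in both populations, and the ranges of neighbouring models did not overlap at any step. GFP- cells were higher in the models of highest level, B (1.71-fold, 1.64 to 1.80) and D (1.69-fold, 1.58 to 1.82). GFP+ cells were higher in those of lowest level, A (1.52-fold) and E (1.81-fold, 1.39 to 2.37), and the levels of model C were close, with a ratio of 1.05. The resulting log2 difference was -0.09 (SE 0.26, adjusted p = 0.952 by edgeR's quasi-likelihood test), with means of 57.7 ± 54.3 and 85.3 ± 102 CPM (SD, n = 5). Its sign turned when model B (0.12) or model D (0.11) was left out, and it was -0.62 without the block. The pericyte marker sum was higher in GFP- cells of A, B and D, by the values given above, and its part in the Gfra1 values was not tested.

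Gfra3 (ENSMUSG00000024366, chromosome 18), the co-receptor that artemin prefers, was not seen in 7 of 10 libraries, where 0 reads allow at most 0.145 to 0.188 CPM. It had 24 reads in GFP+ and 1 read in GFP- cells of model B (1.28 and 0.05 CPM), a ratio of 28.2 with an interval of 4.60 to 1161, and 4 reads in GFP+ cells of model D. Ret had a like count in the same pair, 25 reads against 2. Model B is the pair with the largest share of genes past 2-fold in either direction, 11.2% of 13986, or 6.48% higher and 4.77% lower in GFP+ cells. Neuron markers were also higher in its GFP+ cells, 127 against 57.7 CPM in sum, most of it Stmn2, with 2287 against 1130 reads. Elavl4 had 21 reads in GFP+ and 3 in GFP- cells of that model, Snap25 22 and 6, Prph 13 and 4, Elavl3 11 and 4, Isl1 1 and 0, and Syt1, in the other direction, 34 and 127. Rbfox3 had 0 in both. A higher neuron marker sum in GFP+ cells was not particular to model B. It was also seen in models A (42.2 against 13.1 CPM), D (190 against 108 CPM) and E (8.11 against 4.12 CPM). In model C the sum was higher in GFP- cells (52.1 against 34.0 CPM). The part of these markers in the Gfra3 and Ret values of model B was not tested.

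Of the GDNF family ligands, Artn, Gdnf and Nrtn had higher levels per length of exon than Ret in every library. Nrtn, itself low, stood at 0.364 to 1.01 CPM per kilobase. Artn (ENSMUSG00000028539, chromosome 4, 117926162 to 117929763, minus strand) stood at 185, 59.5, 64.8, 101 and 145 CPM in GFP+ cells of models A to E and at 115, 34.8, 62.9, 55.6 and 116 CPM in GFP- cells. It made up 72.5% to 94.7% of the summed level of the GDNF family ligands per kilobase of exon. Models A and E, lowest for Gfra1 at means of 17.5 and 6.63 CPM, were highest for Artn, with 150 and 130 CPM. Model B, highest for Gfra1 with 198 CPM, was lowest for Artn with 47.2 CPM. Models C and D did not follow this order. D was above C for both Gfra1 (91.5 against 43.9 CPM) and Artn (78.0 against 63.8 CPM). The receptor that artemin prefers, Gfra3, had 0 reads in all libraries of models A, C and E. Per kilobase of exon the median level over 10 libraries was 34.4 CPM for Artn and 4.82 for Gdnf, 8.02 for Gfra1 and 9.99 for Gfra2, 17.6 for Ncam1 and 0.0524 for Ret. The highest Ret level, 0.197 CPM per kilobase, was thus below the lowest of Gfra1, 0.862. Pspn and Gfral, the receptor of GDF15, had 0 reads in all 10 libraries, and Nrtn had 7 to 20.

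**Figure D3:**
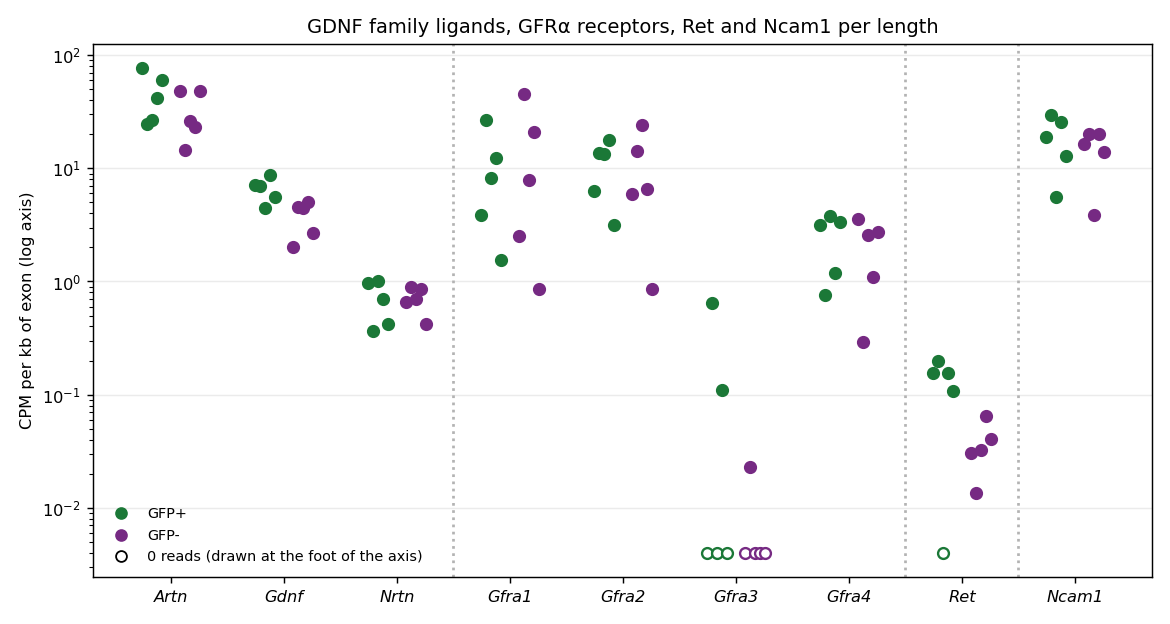
CPM per kilobase of annotated exon (log axis) of the GDNF family ligands, the GFRα co-receptors, Ret and Ncam1, with 1 point per library, green for GFP+ and purple for GFP-. Artn (14.5 to 76.9) lies above the other ligands in every library and Ret (0 to 0.197) far below Gfra1 (0.862 to 45.7) and Gfra2 (0.858 to 24.4).

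Artn and Gdnf were higher in GFP+ cells in models A, B, D and E, and close to equal in model C. Artn was at 110.9 ± 53.6 against 76.9 ± 36.8 CPM (SD, n = 5), with a log2 difference of 0.50 (SE 0.12), an unadjusted p of 0.00402 and an adjusted p of 0.363 by edgeR's quasi-likelihood test. DESeq2, which called 1.39% of the tested genes, gave it an adjusted p of 0.0384, and edgeR's likelihood-ratio test, which called 1.47%, gave 0.0354. In model C the ratio was 1.03 (0.95 to 1.12), within counting error. Gdnf was higher by 0.82 on the log2 scale (SE 0.24, 24.2 ± 6.05 against 13.8 ± 4.86 CPM, SD, n = 5, unadjusted p = 0.00988, adjusted p = 0.411, edgeR), with a tie in model C at 301 and 297 reads. For reference, any higher CPM in GFP+ cells in 5 of 5 pairs, however small, was seen in 6.51% of tested genes.

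Of 22 ligands, receptors and co-receptors examined in both families, 15 passed the filter, with 11 higher and 4 lower in GFP+ cells and a median log2 difference of 0.30. Of these, 5 had an unadjusted p under 0.05, all higher in GFP+ cells (Artn, Gdnf, Sorcs2, Ncam1 and Sort1), where 5.50% of all tested genes did so, and 0 passed the adjusted threshold. None of the 5 is among the 8 genes chosen. Ncam1 stood at 161 ± 83.9 against 129 ± 57.8 CPM (SD, n = 5; log2 difference 0.28, SE 0.11, adjusted p = 0.513, edgeR). The log2 differences of Gfra2 (0.39, SE 0.38) and Gfra4 (0.35, SE 0.23) had larger errors relative to their size, with adjusted p of 0.813 and 0.690 by edgeR's quasi-likelihood test. Gfra2 was at 0.078 without model E, 0.12 without D, 0.75 without C and 0.03 without the block, and Gfra4 was at 0.18 without model B.

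**Figure D4:**
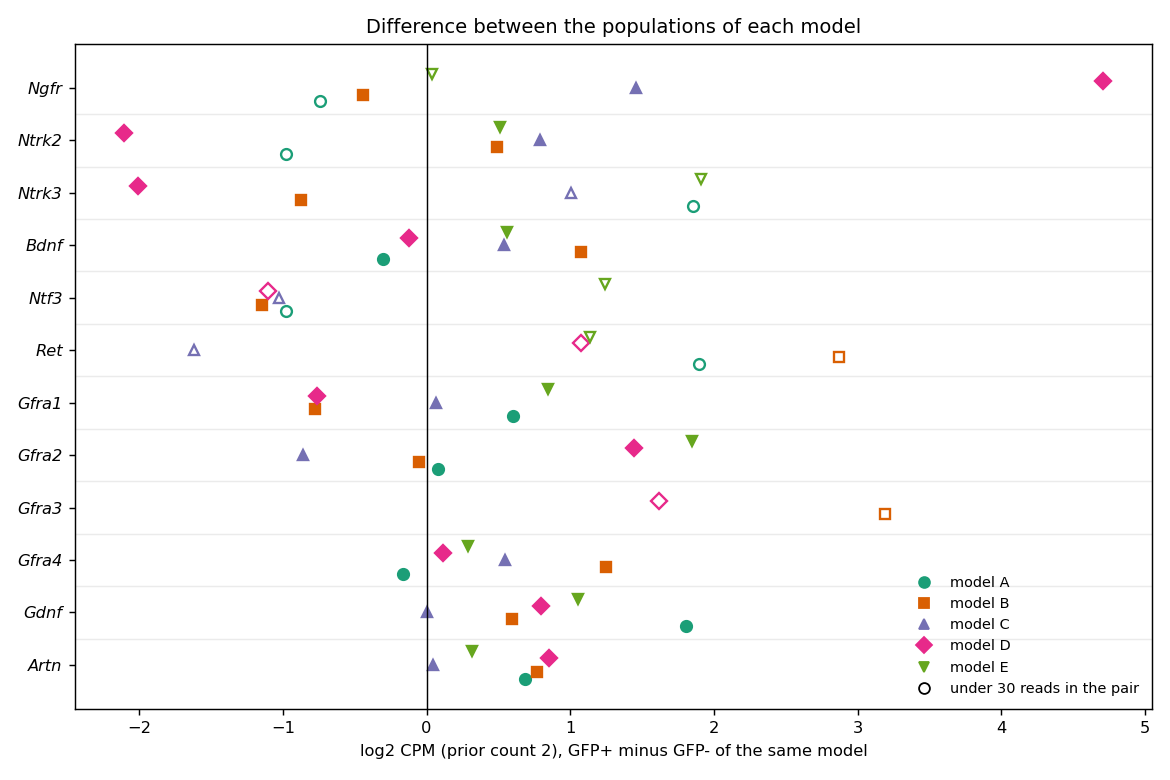
Log2 difference of CPM (prior count 2), GFP+ minus GFP-, in each of the 5 models for 12 genes of the neurotrophin and GDNF families; open symbols mark pairs with under 30 reads in all. Artn and Gdnf lie at or above 0 in every model, while Ngfr and Ntrk2 spread widely, with model D highest for Ngfr and lowest for Ntrk2.

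Among the genes chosen, model D held the most differences past 2-fold. Of the 5 genes tested, 3 differed by over 2-fold in that pair, Ngfr higher and Ntrk2 and Ntrk3 lower in GFP+ cells. Of all tested genes, 7.82% differed by that much (3.89% higher, 3.93% lower). Ntrk3 failed the filter when model B or D was left out, so its place among the 5 rests on the counts of those models. The numbers of the 5 past 2-fold were 1 in model A (6.72% of tested genes), 1 in B (11.2%), 2 in C (4.1%) and 1 in E (6.21%). The gene of model A and 1 of the 2 of model C were Ntrk3, with 5 against 0 and 4 against 1 reads. These are differences between 2 libraries with no replicate.

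Among genes that act with or below these receptors, edgeR's 2 tests and DESeq2 called 0. Of all tested genes, the quasi-likelihood test called 0%, the likelihood-ratio test 1.47% and DESeq2 1.39%. Of 11 partners that bind p75NTR or Trk receptors, 10 passed the filter, 4 higher and 6 lower, with a median log2 difference of -0.03; Sort1 alone of this list, which does not hold Sorcs2, had an unadjusted p under 0.05. Of 24 adaptors and effectors of Trk and RET, 22 passed, 10 higher and 12 lower, with a median of -0.04. Shc3, a Shc-family adaptor of neurons, was higher in 5 of 5 pairs (2.06 ± 1.62 against 1.06 ± 1.05 CPM, SD, n = 5; log2 difference 1.08, SE 0.34, adjusted p = 0.449, edgeR). Crkl, a Crk-family adaptor, was lower in 5 of 5 pairs (51.9 ± 7.44 against 60.0 ± 6.03 CPM, SD, n = 5; -0.25, SE 0.07, adjusted p = 0.417, edgeR), as were 3.38% of all tested genes. Of 20 genes that process neurotrophins or shed p75NTR, 18 passed, 8 higher and 10 lower, with a median of -0.02 and none at an unadjusted p under 0.05. All 14 target genes of Trk or RET signalling passed, 5 higher and 9 lower, with a median of -0.17. Among them Etv5, an ETS factor known as a RET target, stood at 55.4 ± 14.0 against 67.1 ± 14.3 CPM (SD, n = 5; -0.31, SE 0.11, adjusted p = 0.479, edgeR). Crkl and Etv5 were the only genes of these 4 lists lower in GFP+ cells at an unadjusted p under 0.05, where 3.49% of all tested genes were. Over all tested genes 6898 were higher and 7088 lower.

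The genes whose log2 CPM followed each receptor or ligand most closely over the 10 libraries were different for each. Ngfr was followed by Morf4l1 (Pearson r = 0.957), Abca5 (0.953) and Repin1 (0.952), and Ntrk2 by Romo1 (0.959), C920006O11Rik (0.94) and Ppp4r4 (0.939). For Ntrk3 these were Ccdc158 (0.955), Dcc (0.943) and Pcsk5 (0.936), for Bdnf Acy3 (0.995), Slc26a10 (0.976) and Prag1 (0.973), and for Gfra1 they included Arpc5l (0.982) and Prdm11 (0.975). These are descriptions over 10 libraries that form 5 pairs, picked as the highest of 13986 genes, and the 2 libraries of a model share their tumour.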

How the data were processed

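Total RNA of 10 sorted libraries was counted per gene. Each deposited table gives raw read counts, not normalized, for 46517 genes, in the layout of STAR's gene counts; STAR 2.4.2.8 and build mm10 are named per the submitters' processing notes, and the annotation and strand setting are not stated in the sources used here. The count column for the second strand setting was used, which took 96.9% to 97.1% of the stranded gene reads; lines that name no gene, 21.3% to 24.3% of each table's reads, were left out. Gene names, positions and exon lengths came from GENCODE vM21, which matched 46005 of the 46517 identifiers, and promoter sequences from RefSeq. CPM used library totals over genes. Differences were tested with edgeR 4.0.16 (R 4.3.3) on the counts: TMM scaling, filterByExpr by population, tumour model as a block, quasi-likelihood test, Benjamini-Hochberg over 13986 genes. The fit was tested on simulated data. The series' design text states a paired comparison, and same-model libraries deviated together (correlations 0.628 to 0.867). Alternatives used no block, other scalings and filters, DESeq2 1.42.0, limma 3.58.1, a likelihood-ratio test, unstranded counts and each model left out. The 8 genes, the lists and the rule for named genes (the 8 always, family members by choice, up to 4 genes of each list by smallest p, the 3 most alike genes, and Sox10 and Xist) were chosen with earlier results of these data known. The Schwann, pericyte, neuron, melanocyte, keratinocyte, muscle, fibroblast, leukocyte and endothelium marker lists were summed as CPM. Some genes are not reported here.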

Additional observations from a re-analysis of the deposited data

Results flagged for a closer look

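In groups of 5 libraries, 4 of 40 groups held a library far from the other 4, by the gap to its nearest neighbour against the group's whole range, both taken on log2 CPM with a prior count of 2; chance flags about 1 in 20 such groups. Ncam1 in GFP- cells stood at 33.4 CPM in model C, against 121 to 174 CPM in the other models. Ntrk2 in GFP+ cells was at 0 CPM in model A, against 5.69 to 16.2 CPM, and Ret in GFP+ cells was at 0 CPM in model C, against 0.724 to 1.33 CPM. Gfra3 in GFP- cells was at 0.0453 CPM in model B, which is 1 read, and at 0 in the other 4 models. With those 4 at 0, any single read meets the rule, so this flag cannot be set against the chance rate.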

How the results depend on the processing

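None of the 8 genes was called under the alternatives in which it was fitted; Ntf3, Ret and Gfra3 were fitted only without a filter. The count of genes called, 0 of 13986, was also 0 without the replicate block, with other scalings, a stricter filter, limma voom, unstranded counts and each pair left out; it was 47 without a filter on low counts, 195 by DESeq2 and 206 by edgeR's likelihood-ratio test. Of 206 log2 differences of the 15 tested family genes under alternatives, 194 kept the direction and 12, in 6 genes, did not. Leaving out each pair moved Ntrk2 from -0.47 to 0.50, Gfra1 from -0.30 to 0.12, Sorcs1 from -0.34 to 0.38, Nradd from -0.0056 to 0.089 and Nrtn from -0.28 to 0.20. Ntrk3 was 0.69 by DESeq2 and 0.55 by the likelihood-ratio test, and Sorcs1 was -0.28 without the block that pairs the libraries, -0.0101 without a filter and -0.0500 by voom; the cause was not tested. Ngfr kept its direction, from 0.33 without model D to 2.46 without the block. Ntrk3 could not be fitted under the stricter filter or without model B or D, where it failed the filter. Reads limit Ntf3, Ret and Gfra3 most: without a filter their log2 differences were -1.14 (SE 0.48), 1.56 (SE 0.64) and 4.08 (SE 1.31), with adjusted p of 0.623, 0.608 and 0.408 by edgeR.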

Other observations

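Melanocyte markers, of another cell type of the neural crest, summed to 13.3 to 24.3 CPM in GFP+ and 17.5 to 42.9 CPM in GFP- libraries, with Tyr and Tyrp1 at 0 reads throughout. Keratinocyte markers summed to at most 4.78 CPM. Fibroblast markers summed to 15990 to 31382 CPM, most of it Col3a1 and Col1a1 in models A, B, D and E, while Dcn ranged from 68.6 CPM in GFP- cells of model B to 10149 CPM in GFP+ cells of model C.

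Nes, the gene of nestin, was higher in GFP+ cells in 4 of 5 pairs, with a log2 difference of 1.20 (SE 0.29, adjusted p = 0.363 by edgeR's quasi-likelihood test, 0.00181 by DESeq2 and 0.00912 by edgeR's likelihood-ratio test). Sox10 had a log2 difference of 3.61 (SE 0.40, adjusted p = 0.183 by the first of these tests, 1.4e-14 by DESeq2 and 2.21e-12 by the likelihood-ratio test).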
